A study of Homo sapiens with 6 samples.

Results

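The proteasome subunits and their assembly chaperones were examined in DU145 cells, an established human prostate carcinoma cell line, after overexpression of the circular RNA circCSPP1. The genes were chosen by symbol (PSMA, PSMB, PSMC, PSMD, PSME, PSMF or PSMG followed by a number, or POMP), and 49 of the 19727 genes in the deposited table met this rule. Cells transfected with lentivirus-circCSPP1 (genotype label circCSPP1 overexpression, libraries OE1 to OE3) were compared with cells transfected with lentivirus-NC (genotype label normal, libraries NC1 to NC3). Polyadenylated RNA was sequenced in all 6 libraries. The study's methods give puromycin selection for its lentiviral lines, so a vector and the selection are common to both groups. Nothing states whether the replicates were separate cultures, so the p-values measure the spread between these libraries, which may be technical.

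The proteasome degrades proteins that carry ubiquitin chains. Its core particle is a barrel of stacked rings, in which alpha subunits (PSMA genes) form the outer gates and beta subunits (PSMB genes) the inner rings, where PSMB5, PSMB6 and PSMB7 carry the proteolytic sites. Interferon induces replacements for these catalytic subunits, PSMB8, PSMB9 and PSMB10, which make up the immunoproteasome and favour peptides suited to MHC class I. A regulatory particle caps the core: ATPases (PSMC genes) unfold substrates, and the other base and lid subunits (PSMD genes) bind ubiquitin and remove it. Activators (PSME genes) can cap the core instead, and chaperones (PSMG genes and POMP) guide assembly of the rings.

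The values are FPKM, fragments scaled to transcript length and sequencing depth, and the group difference is a log2 fold change on log2(FPKM + 1). The steps between low FPKM values placed the depth at 28600000 to 36400000 fragments per library, with overlapping groups. CSPP1, the host gene of the circle, measured 9.54 ± 0.493 FPKM in NC and 19.5 ± 4.44 FPKM in OE (SD, n = 3 in each). The circle, the linear transcript and the vector cannot be told apart in an FPKM summed over the gene. From quantitative PCR, the study reports that its lentivirus raised circCSPP1 in DU145 and left CSPP1 mRNA unchanged. OE1 stood apart from OE2 and OE3 (Pearson r across genes of 0.970 and 0.979, against 0.990 between OE2 and OE3). Because of this, many values are also given without that library. The epithelial markers KRT8, KRT18, KRT19, EPCAM and CDH1 were present in all 6 libraries and all 5 were lower with OE (summed FPKM 1046 to 1278 against 2271 to 2361). The secreted prostate markers KLK3 and KLK2 were listed at 0 in all 6 libraries. The 5 fibroblast and 5 leukocyte markers summed to at most 4.19 and 2.61 FPKM, and both sums were lower in every OE library than in every NC library. Each sum rested mainly on 1 gene in NC. COL1A1 was called lower (3.26 FPKM in NC and 1.15 FPKM in OE), and CD14 was not called (2.37 and 1.43 FPKM). LUM and CD3E were at 0, and the sums therefore do not describe fibroblasts or leukocytes as cell types. In bulk libraries, fewer cells of a type and less RNA per cell cannot be told apart. The part of these markers in the results was not tested.

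Of the 49 genes, 47 had a mean of at least 1 FPKM and were tested with limma across all 12322 genes that passed this filter. The untested genes were PSMA8, a testis subunit, listed at 0 in all 6 libraries, and PSMB11, a thymus subunit, listed at 0 in 5 libraries and at 0.02 FPKM in 1. In limma with Benjamini-Hochberg adjustment 3 genes passed an adjusted p of 0.05: PSMG3 rose, and PSMD1 and PSMB2 fell. This was 3 of 47, or 6.38%, against 11.4% of all tested genes. By direction, 2.13% of the proteasome genes rose against 4.69% of all tested genes, and 4.26% fell against 6.66%. In this fit the share of proteasome genes called was not above the background, which did not hold under every setting.

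The differences were small. The log2 fold change ran from -0.50 (PSMD1) to 0.65 (PSMG3), and 95.7% of the 47 genes lay within 0.5 of 0, against 88.8% of all tested genes. The median was -0.14, with 34 genes below 0 and 13 above, beside a median of -0.03 over all tested genes, of which 54% were below 0. By role, the median was -0.16 for the alpha subunits (-0.08 without OE1), -0.11 for the constitutive beta subunits (-0.19 without OE1) and -0.23 for the immunoproteasome subunits (-0.29 without OE1). It was -0.11 for the ATPases (-0.07 without OE1), -0.08 for the other base and lid subunits (-0.011 without OE1), -0.14 for the activators and inhibitor (-0.12 without OE1) and -0.12 for the assembly factors (0.018 without OE1). In 14 genes (29.8%) every OE library was below every NC library, which was so for 20.5% of all tested genes. In 2 genes (4.26%), PSMG3 and PSMG4, every OE library was above, against 16% of all tested genes. The FPKM of all 49 genes summed to 6195, 6287 and 6328 in NC1, NC2 and NC3 and to 5968, 5766 and 6005 in OE1, OE2 and OE3. The groups did not overlap in this sum, whose mean differed by -5.69% in OE. As a share of all FPKM in the library, it was 1.030% to 1.049% in NC and 0.979% to 1.007% in OE.

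**Figure D1:**
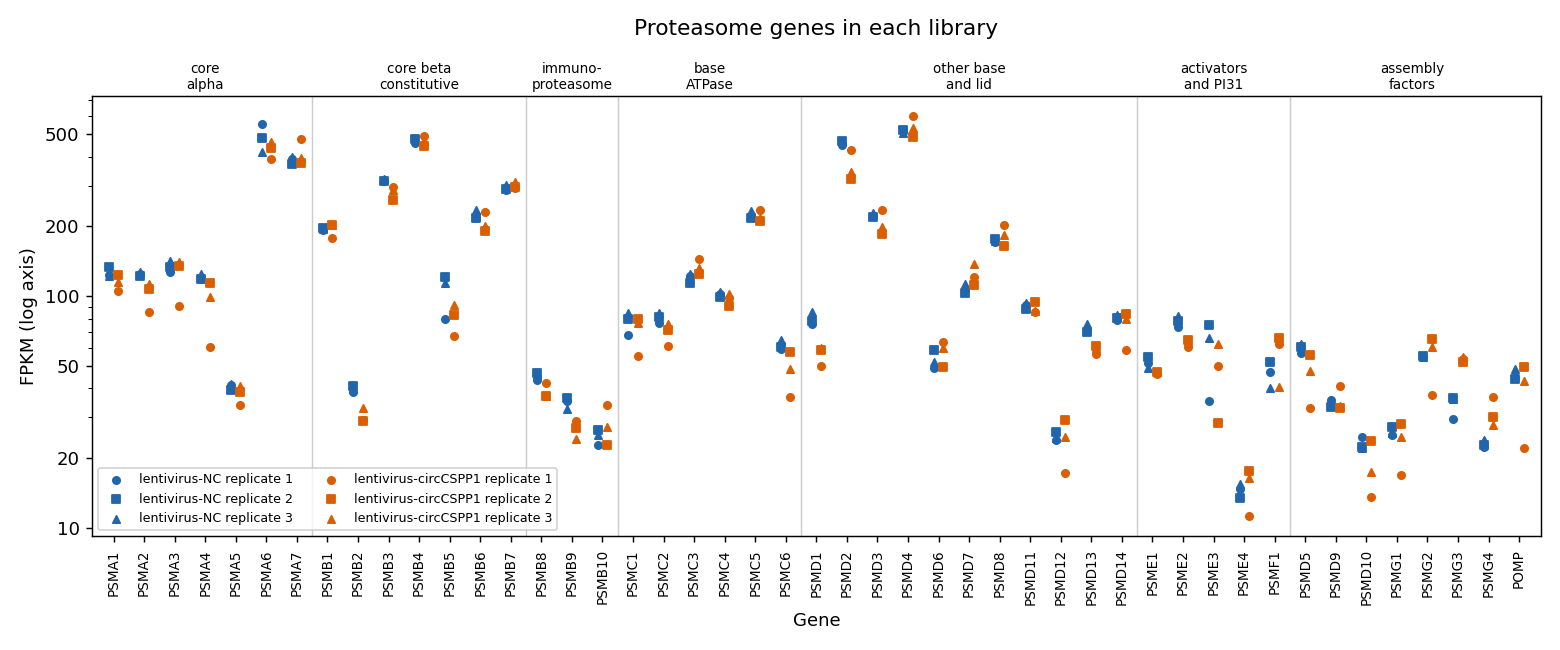
FPKM of the 47 tested proteasome genes in each of the 6 libraries (log axis), grouped by role, with NC in blue, OE in orange and a symbol for each replicate number. Within a ring or particle the genes span up to 21.7-fold in level, and the orange circle of OE1 often lies away from the other orange symbols.

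FPKM levels differed widely between subunits of the same particle. FPKM is scaled to transcript length, but the transcript lengths used are not given in the sources used here, so levels of different genes compare only roughly. Among the 7 alpha subunits the mean FPKM over the 6 libraries ran from 39.3 (PSMA5) to 457 (PSMA6), a range of 11.6-fold. Among the 7 constitutive beta subunits it ran from 35.1 (PSMB2) to 471 (PSMB4), 13.4-fold, and among the 6 ATPases from 54.6 (PSMC6) to 223 (PSMC5), 4.08-fold. The other 11 base and lid subunits covered 24.2 (PSMD12) to 527 FPKM (PSMD4, a ubiquitin receptor), 21.7-fold. PSMD4, the highest, exceeded 99% of tested genes in mean level, and PSME4, the lowest at 14.8 FPKM, exceeded 48.2%.

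The sequences before the start sites of 4 genes are shown, those of PSMD1, a base scaffold, and PSMB2, a beta subunit, because they fell, and those of PSMB9 and PSME2 because they are interferon-inducible and lower in every OE library. Each is the 250 bases before the start in RefSeq (GRCh38.p14), 5′ to 3′ on the gene's strand, and capitals mark motif matches. The RefSeq start can differ from the gene boundary in GENCODE, whose coordinates are given for the genes. Both strands were searched for TGACNNNGC, the core of the antioxidant response element that NRF factors bind, and for the CCAAT box. The search also covered an ETS core with the letters CCGGAAG, an interferon response core, GAAANNGAA, and the gamma activated site, TTCNNNGAA.
PSMD1, chr2:231056617-231056866, plus strand: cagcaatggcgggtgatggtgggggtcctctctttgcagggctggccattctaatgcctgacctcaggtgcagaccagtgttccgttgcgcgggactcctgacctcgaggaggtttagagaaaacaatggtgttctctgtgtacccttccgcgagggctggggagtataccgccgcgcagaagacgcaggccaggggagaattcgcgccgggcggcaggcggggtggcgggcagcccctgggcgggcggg
PSMB2, chr1:35641527-35641776, minus strand: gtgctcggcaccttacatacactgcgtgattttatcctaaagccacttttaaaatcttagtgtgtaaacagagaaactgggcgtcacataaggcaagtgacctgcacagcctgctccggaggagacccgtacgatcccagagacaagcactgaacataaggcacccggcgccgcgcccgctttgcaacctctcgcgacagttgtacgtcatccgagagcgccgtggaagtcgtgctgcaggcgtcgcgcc
PSMB9, chr6:32853942-32854191, plus strand: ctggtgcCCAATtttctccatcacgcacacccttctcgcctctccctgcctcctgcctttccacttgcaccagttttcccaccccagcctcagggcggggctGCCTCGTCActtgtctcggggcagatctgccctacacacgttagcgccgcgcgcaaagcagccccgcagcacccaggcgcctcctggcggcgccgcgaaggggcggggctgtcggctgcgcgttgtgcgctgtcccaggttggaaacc
PSME2, chr14:24146611-24146860, minus strand: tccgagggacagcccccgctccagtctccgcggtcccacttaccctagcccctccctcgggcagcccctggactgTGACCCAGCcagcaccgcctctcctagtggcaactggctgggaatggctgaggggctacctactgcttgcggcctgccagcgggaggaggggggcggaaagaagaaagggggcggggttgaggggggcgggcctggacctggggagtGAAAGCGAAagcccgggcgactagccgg
PSMB9 held a CCAAT box at -243 to -239 and an antioxidant response core at -148 to -140, counted from the start. PSME2 held an antioxidant response core at -175 to -167 and an interferon response core at -28 to -20. PSMD1 and PSMB2 had no match to these letters in the window.

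The promoter table held 43 of the 49 genes, of which 41 were tested. TGACNNNGC was found in 11 of these 41 (26.8%), against 12.1% of the 9725 promoters of tested genes in the table. GAAANNGAA was in 6 (14.6%) against 5.3%, the ETS core in 10 (24.4%) against 16.7%, the CCAAT box in 17 (41.5%) against 34.9% and TTCNNNGAA in 4 (9.76%) against 5.5%. A match is a description of the letters and not of factor binding.

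None of the 7 alpha subunits passed the test, and their median log2 fold change was -0.16, with 6 below 0. PSMA4 had the lowest value of the ring. It measured 119, 118 and 124 FPKM in NC1, NC2 and NC3, against 60.6, 114 and 99.1 FPKM in OE1, OE2 and OE3. The groups did not overlap, but OE1 held most of the difference: PSMA4 differed by -0.45 ± 0.21 on the log2 scale (SE, adjusted p = 0.22) with that library and -0.18 (adjusted p = 0.11) without it. PSMA2 was also lower in every OE library (85.7 to 112 FPKM against 122 to 128 FPKM), with a log2 fold change of -0.30 (adjusted p = 0.13, and -0.18 with adjusted p = 0.046 without OE1). PSMA7, at 477 FPKM in OE1 against 371 to 400 FPKM in the other 5 libraries, was the single alpha subunit with a value above 0 (0.09, adjusted p = 0.59, and -0.0096 without OE1). PSMA1, PSMA3, PSMA5 and PSMA6 lay between -0.17 and -0.11 (-0.10 to 0.04 without OE1), and their groups overlapped.

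Of the 7 constitutive beta subunits 1 fell, PSMB2, a subunit without a proteolytic site. PSMB2 (ENSG00000126067, chromosome 1 from 35599544 to 35641844, minus strand, GRCh38, GENCODE release 29) measured 38.6, 41.1 and 39.6 FPKM in NC1, NC2 and NC3, against 29.25, 29.03 and 32.8 FPKM in OE1, OE2 and OE3. The 3 OE libraries were close together and all below NC, including OE1. PSMB2 differed by -0.38 ± 0.090 on the log2 scale (SE, adjusted p = 0.037), and it was -0.36 (adjusted p = 0.018) without OE1. The call was lost without any other single library, where the adjusted p lay between 0.073 and 0.16.

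The catalytic subunits did not pass the test. PSMB5, which carries the chymotrypsin-like site, measured 79.3, 121 and 114 FPKM in NC and 67.4, 83.2 and 91.5 FPKM in OE. NC1 lay below OE2 and OE3, so the groups overlapped, and PSMB5 differed by -0.36 ± 0.18 on the log2 scale (SE, adjusted p = 0.25, and -0.24 without OE1). PSMB6 (caspase-like site) and PSMB7 (trypsin-like site) had log2 fold changes of -0.11 and 0.03 (adjusted p = 0.50 and 0.78), and PSMB6 was at -0.19 (adjusted p = 0.052) without OE1. PSMB1 and PSMB4 were within 0.02 of 0 (0.05 and -0.05 without OE1). PSMB3 was at -0.17 (adjusted p = 0.18), with no overlap between groups, and at -0.21 (adjusted p = 0.032) without OE1.

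The immunoproteasome subunits were expressed at 22.8 to 46.7 FPKM, and none of the 3 passed the test. PSMB8 measured 43.5, 46.7 and 46.3 FPKM in NC1, NC2 and NC3, against 42.4, 36.9 and 37.3 FPKM in OE. PSMB9 measured 35.4, 36.4 and 32.7 FPKM against 29.1, 26.9 and 24.2 FPKM. Both were lower in every OE library. Their log2 fold changes were -0.23 ± 0.092 (SE, adjusted p = 0.16) and -0.37 ± 0.10 (SE, adjusted p = 0.058). Without OE1, both passed the test, at -0.29 (adjusted p = 0.018) and -0.43 (adjusted p = 0.013). PSMB10 was at 22.8, 26.5 and 25.1 FPKM against 33.9, 22.8 and 27.4 FPKM, and its groups overlapped (log2 fold change 0.16, adjusted p = 0.54). Its highest library was OE1, without which the value was 0.015. PSMB8 and PSMB9 share exonic bases on opposite strands in GENCODE, and whether the counting used strand is not given in the sources used here, so reads from that stretch cannot be assigned to either.

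Each immunoproteasome subunit takes the place of 1 constitutive subunit, and their ratio was followed in each library. PSMB8 made up 35.4%, 27.9% and 28.97% of the summed PSMB8 and PSMB5 FPKM in NC1, NC2 and NC3, against 38.6%, 30.7% and 28.94% in OE. PSMB9 made up 14.0%, 14.3% and 12.2% of PSMB9 and PSMB6 in NC and 11.2%, 12.3% and 10.8% in OE. PSMB10 made up 7.36%, 8.35% and 7.66% of PSMB10 and PSMB7 in NC and 10.3%, 7.16% and 8.08% in OE. The log2 ratios differed between groups by 0.13, -0.27 and 0.12 for these 3 pairs (exact two-sided permutation test, p = 0.50, 0.20 and 0.70, and 0.70, 0.60 and 0.70 after adjustment over the 3 pairs). With 3 libraries against 3 this test cannot give a p below 0.10, so it could not pass 0.05 for any pair.

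**Figure D2:**
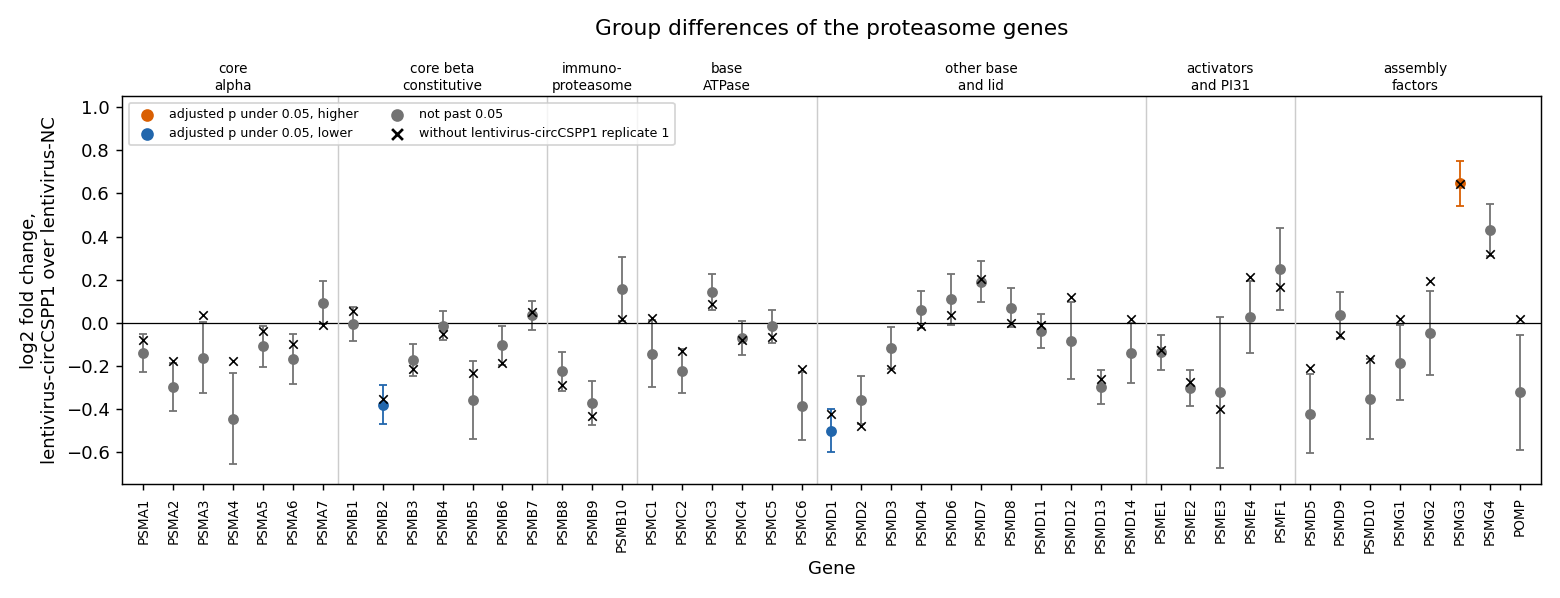
The log2 fold change of each tested proteasome gene (OE over NC, on log2(FPKM + 1)) by role, with bars for the limma standard error and colour for genes past an adjusted p of 0.05. Crosses give the value without OE1: PSMG3 stays at 0.64, while PSMA4 moves from -0.45 to -0.18 and POMP from -0.32 to 0.02.

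The 6 ATPases of the base did not pass the test, and their median log2 fold change was -0.11. PSMC6 was the lowest, at 59.2, 60.4 and 64.9 FPKM in NC and 36.7, 57.5 and 48.7 FPKM in OE. The groups did not overlap, and the spread in OE was wide (log2 fold change -0.39 ± 0.16 SE, adjusted p = 0.16, and -0.21 without OE1). PSMC2 was also lower in every OE library (-0.22, adjusted p = 0.21, and -0.13 without OE1). PSMC1, PSMC4 and PSMC5 overlapped between groups with values from -0.14 to -0.02 (-0.08 to 0.02 without OE1), and PSMC3 was at 0.14 (0.09 without OE1).

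Of the other 11 base and lid subunits, 1 fell, PSMD1, the large scaffold subunit of the base. PSMD1 (ENSG00000173692, chromosome 2 from 231056864 to 231172827, plus strand, GRCh38) measured 75.7, 77.8 and 85.6 FPKM in NC1, NC2 and NC3, against 50.02, 58.6 and 59.8 FPKM in OE1, OE2 and OE3. The highest OE library was well below the lowest NC library. PSMD1 differed by -0.50 ± 0.10 on the log2 scale (SE, adjusted p = 0.022), the largest fall among the proteasome genes, and it was -0.42 (adjusted p = 0.0087) without OE1. The call also held without OE2, and it was lost without any 1 of the other 4 libraries (adjusted p from 0.060 to 0.10). PSMD1 overlaps HTR2B on the opposite strand, which was at 0.083 FPKM in NC and 0.040 FPKM in OE.

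PSMD2, the other scaffold subunit of the base, was far more abundant than PSMD1 in every library and was also lower in every OE library. It measured 451, 469 and 469 FPKM in NC and 429, 319 and 345 FPKM in OE (log2 fold change -0.36 ± 0.11 SE, adjusted p = 0.083). Here OE1 lay nearest to NC, and without it the value was -0.48 (adjusted p = 0.0026). PSMD13, a lid subunit, measured 71.6, 70.4 and 76.0 FPKM against 56.1, 61.2 and 59.6 FPKM, with no overlap (-0.30, adjusted p = 0.055, and -0.26 with adjusted p = 0.022 without OE1). PSMD14, the deubiquitinase of the lid, was at 79.2, 80.7 and 82.8 FPKM against 58.5, 84.1 and 79.9 FPKM, a difference that rested on OE1 (-0.14, adjusted p = 0.55, and 0.02 without it). PSMD3, PSMD4, PSMD6, PSMD7, PSMD8, PSMD11 and PSMD12 overlapped between groups with log2 fold changes from -0.12 to 0.19 (-0.22 to 0.20 without OE1). PSMD3, the lowest of these, passed the test without OE1 (adjusted p = 0.024).

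None of the 5 genes of the activators and their inhibitor passed the test. PSME2, a subunit of the interferon-inducible 11S cap, measured 73.6, 78.0 and 82.2 FPKM in NC and 60.4, 64.5 and 63.9 FPKM in OE. All 3 OE libraries were lower (log2 fold change -0.30 ± 0.081 SE, adjusted p = 0.055), and without OE1 the gene passed the test (-0.27, adjusted p = 0.025). PSME1, its partner in the cap, was also lower without overlap, at 45.9 to 47.3 FPKM against 48.8 to 54.4 FPKM (-0.14, adjusted p = 0.32). PSME3, which forms a nuclear cap of its own, had the widest spread of the 47 genes in NC, 35.2, 75.4 and 66.1 FPKM in NC and 49.98, 28.4 and 62.4 FPKM in OE. The highest library was 2.14 times the lowest in NC and 2.19 times in OE, and a difference was not detectable at this spread (-0.32 ± 0.35 SE, adjusted p = 0.60). PSME4, the single-chain activator, was at 0.03 (adjusted p = 0.94, and 0.21 with adjusted p = 0.11 without OE1). PSMF1, which encodes the inhibitor PI31, measured 46.9, 51.9 and 40.0 FPKM against 61.9, 65.9 and 40.6 FPKM and overlapped between groups (0.25, adjusted p = 0.44, and 0.17 without OE1).

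Of the 8 assembly factors 1 rose, PSMG3, a chaperone of the alpha ring. PSMG3 (ENSG00000157778, chromosome 7 from 1567330 to 1571005, minus strand, GRCh38) measured 29.4, 36.3 and 35.9 FPKM in NC1, NC2 and NC3, against 53.8, 52.0 and 54.5 FPKM in OE1, OE2 and OE3. Every OE library exceeded every NC library, and the mean was 1.58 times as high. The log2 fold change of 0.65 ± 0.10 (SE, adjusted p = 0.011) was the largest in size of the 47 genes, and it was 0.64 (adjusted p = 0.0084) without OE1. The adjusted p was 0.052 without NC1 and 0.054 without OE3. The antisense gene PSMG3-AS1 overlaps PSMG3 in GENCODE, and reads of the pair cannot be told apart without strand.

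PSMG4, the dimer partner of PSMG3, was the other gene with all OE libraries above NC. It measured 22.4, 22.7 and 23.9 FPKM in NC and 36.8, 30.2 and 27.8 FPKM in OE. It differed by 0.43 ± 0.12 on the log2 scale (SE, adjusted p = 0.059), and without OE1, its highest library, it was 0.32 (adjusted p = 0.021). PSMG4 overlaps TUBB2B (mean 8.09 FPKM in NC and 10.8 FPKM in OE) and SLC22A23 (6.16 and 4.56 FPKM) on the opposite strand. Reads from shared stretches cannot be told apart without strand. PSMG1 and PSMG2 form the other dimer that scaffolds the alpha ring. PSMG1 was at 25.1, 27.2 and 25.6 FPKM against 16.9, 28.1 and 24.6 FPKM, and PSMG2 at 54.5, 55.1 and 54.5 FPKM against 37.5, 65.4 and 60.3 FPKM. In both, OE1 lay below all the other libraries and the groups overlapped (log2 fold changes -0.18 and -0.05, adjusted p = 0.54 and 0.90, and 0.017 and 0.20 without OE1).

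POMP, the chaperone that brings the beta ring together, measured 44.4, 43.7 and 48.7 FPKM in NC and 22.2, 49.6 and 42.9 FPKM in OE. OE1 was the single library that stood apart. POMP differed by -0.32 ± 0.27 on the log2 scale (SE, adjusted p = 0.48) with it and 0.02 (adjusted p = 0.89) without it. PSMD5 and PSMD10, chaperones of the base, were at -0.42 and -0.35 (adjusted p = 0.18 and 0.26), also with OE1 lowest, and at -0.21 and -0.17 without OE1. PSMD9 was at 0.04 (-0.06 without OE1).

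**Figure D3:**
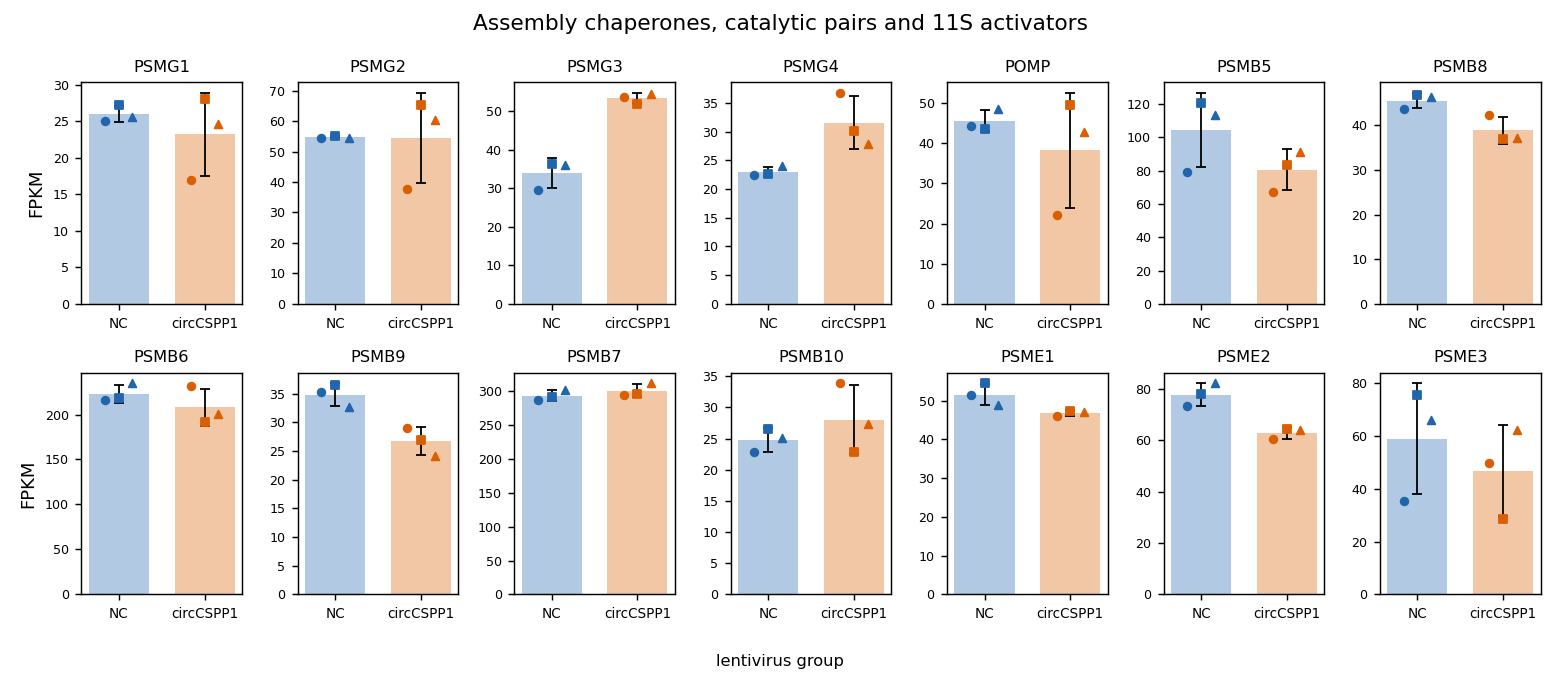
FPKM of the chaperones PSMG1 to PSMG4 and POMP, the 3 constitutive and immunoproteasome pairs, and PSME1, PSME2 and PSME3 (bars: mean, error bars: SD, n = 3, symbols: replicates 1 circle, 2 square, 3 triangle). PSMG3 lies at 52.0 to 54.5 FPKM in OE and 29.4 to 36.3 FPKM in NC, whereas PSMG1, PSMG2 and POMP are low in OE1 only.

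The departure of OE1 ran with the GC content of the transcripts. For each of the 47 genes, OE1 was compared with the mean of OE2 and OE3 on log2(FPKM + 1). The 10 genes of lowest GC content (34.6% to 41.5%, POMP lowest) were all lower in OE1, by a median of -0.56 on the log2 scale, whereas of the 10 genes of highest GC content (54.3% to 60.1%) 1 was lower and the median was 0.20. Over the 47 genes this difference correlated with GC content at Pearson r = 0.72 and Spearman rho = 0.70, beside 0.73 and 0.78 over the 12305 tested genes with a transcript in GENCODE. These correlations are across genes that share the same libraries, and genes are not independent replicates. In the 3 NC libraries the Spearman correlation of a library's departure from its group mean with GC content ran from -0.10 to 0.18 over the 47 genes. OE2 minus OE3 also ran with GC content, less strongly (Spearman rho = -0.36 over the 47 genes and -0.45 over the 12305 genes). Values without OE1 are therefore not free of a spread that runs with GC content. OE1 was the lowest of all 6 libraries in 24 of the 47 genes (51.1%, against 35.1% of all tested genes) and the highest in 11 (23.4%, against 24.4%). The median SD of the 47 genes on the log2 scale was 0.162 in OE and 0.058 in NC, and over all tested genes 0.189 and 0.081.

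**Figure D4:**
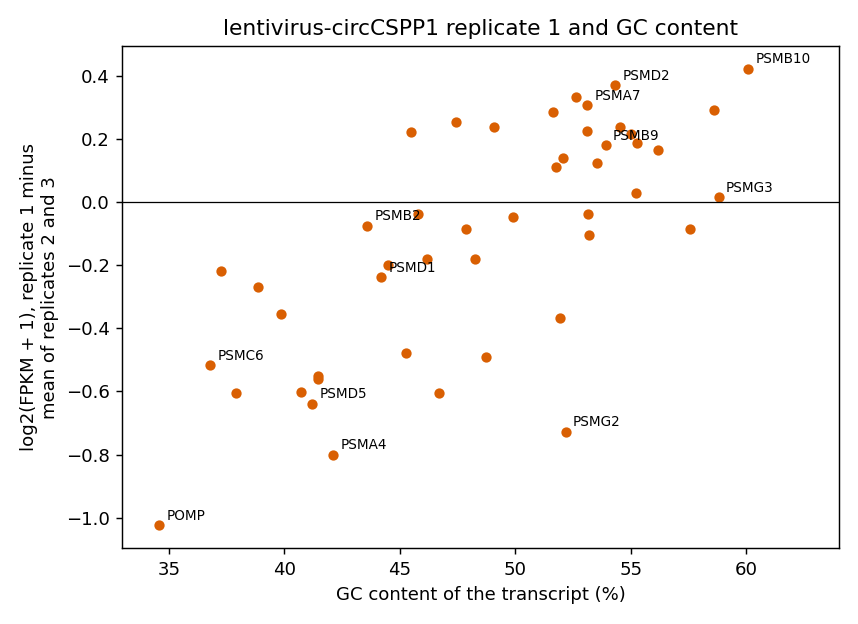
Each point is 1 of the 47 tested proteasome genes: its transcript's GC content (percent) against log2(FPKM + 1) in OE1 minus the mean of OE2 and OE3. Genes of low GC content such as POMP (-1.02) lie below 0 and genes of high GC content such as PSMB10 (0.42) above it, while the called genes PSMG3 (0.01) and PSMB2 (-0.07) lie near 0.

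Without this library, 12 of the 47 genes passed an adjusted p of 0.05, 2 higher (PSMG3 and PSMG4) and 10 lower (PSMA2, PSMB2, PSMB3, PSMB8, PSMB9, PSMD1, PSMD2, PSMD3, PSMD13 and PSME2). These were 4.26% of the proteasome genes higher and 21.3% lower, against 13.1% higher and 15.4% lower over all tested genes. Counting both directions, the shares were 25.5% and 28.5%. The median log2 fold change of the 47 genes moved from -0.14 to -0.06, beside 0.01 over all tested genes. With all 6 libraries and a correction of each library for GC content and transcript length, 14 genes passed, 2 higher (4.26%) and 12 lower (25.5%), against 12.3% higher and 16.3% lower over all tested genes. Counting both directions, these shares were 29.8% and 28.6%. PSMG3, PSMD1 and PSMB2 were called in both. The 14 were the 12 named above without PSMA2, together with PSMA4, PSMC6 and PSMD5, and the median over the 47 genes was -0.13.

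Other genes of the ubiquitin-proteasome pathway were taken as a list of 33, and all 33 were tested. Of these 33, 1 passed, NFE2L2, a smaller share than the 11.4% of all tested genes that passed. The median log2 fold change of the list was 0.04, beside -0.03 over all tested genes. NFE2L2, which encodes the stress-responsive factor NRF2, measured 24.7, 43.3 and 22.5 FPKM in NC and 54.2, 71.7 and 63.9 FPKM in OE. All 3 OE libraries were higher (log2 fold change 1.09 ± 0.24 SE, adjusted p = 0.029). NFE2L1 encodes NRF1, the factor that restores proteasome gene transcription when proteasome activity is short. It measured 258, 257 and 205 FPKM against 285, 343 and 349 FPKM (0.44, adjusted p = 0.058, and 0.53 with adjusted p = 0.016 without OE1). NGLY1, the glycanase needed for NRF1 processing, was lower in every OE library, at 7.72 to 11.4 FPKM against 13.2 to 13.7 FPKM (-0.49, adjusted p = 0.068, and -0.37 with adjusted p = 0.044 without OE1). DDI2, the remaining gene listed for transcriptional control, went the other way, with overlapping groups (4.73 to 5.01 FPKM in NC against 4.99 to 7.63 FPKM in OE). Its log2 fold change was 0.31 (adjusted p = 0.22), and 0.45 with adjusted p = 0.022 without OE1. None of the 13 proteasome-associated factors, the 10 shuttle and segregase genes or the 6 ubiquitin and E1 genes passed. Among them ADRM1, a ubiquitin receptor of the base, was at 163 to 165 FPKM in NC and at 250, 184 and 189 FPKM in OE (0.32, adjusted p = 0.13). Without OE1, its highest library, it was at 0.18 and passed the test (adjusted p = 0.027).

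Of 11 genes that work with the immunoproteasome, 2 passed the test, 1 higher and 1 lower. Over all tested genes 11.4% passed, 4.69% higher and 6.66% lower, so 2 calls among 11 genes set this list little apart. IRF1, a transcription factor that induces PSMB9, measured 23.8, 19.4 and 24.5 FPKM in NC and 36.3, 30.7 and 30.7 FPKM in OE (log2 fold change 0.51 ± 0.12 SE, adjusted p = 0.039). STAT2, a mediator of type I interferon signals, measured 26.6, 28.9 and 25.2 FPKM against 15.1, 14.9 and 15.5 FPKM (-0.79 ± 0.095 SE, adjusted p = 0.0047). Neither gene's groups overlapped. TAP1, the peptide transporter gene that shares its promoter region with PSMB9, overlapped between groups at 53.7 to 56.9 FPKM against 43.6 to 62.6 FPKM (-0.11, adjusted p = 0.66). OE1 was the highest of the 6 libraries, and without it the gene was at -0.25 and passed the test (adjusted p = 0.042).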

How the data were processed

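RNA-seq libraries of polyadenylated RNA from 6 DU145 samples, 3 per group, were compared. The authors deposited FPKM values per gene and library, rounded to 2 decimals. The submitters' processing notes name hg38, and the aligner, counting program, annotation and use of strand are not given in the sources used here. Columns were matched to samples by group and replicate number, and no column was left over.

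Values were taken to log2(FPKM + 1), and limma 3.58.1 (R 4.3.3, moderated with a mean-variance trend, two-sided) was run on the 12322 genes whose mean reached 1 FPKM, with Benjamini-Hochberg adjustment over all of them. A fold change on this scale understates that of genes with low FPKM. Depth was read from the steps between FPKM values of single-transcript genes shorter than 800 nt, where 93.2% to 98.5% of 56 to 69 values per library lay within 0.15 of a whole fragment. At this depth each tested proteasome gene rested on about 548 fragments or more per library. Transcript length, GC content and coordinates came from the longest complete coding transcript in GENCODE release 29 (GRCh38). Promoters came from RefSeq. Pseudogenes named after 12 of the genes, and genes overlapping the exons of 23, could share fragments with them.

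The proteasome genes, gene lists and motifs were chosen with earlier results of these data known. Genes named by rule were those past an adjusted p of 0.05, the 5 largest changes, the catalytic and immunoproteasome subunits, POMP, PSMD14, PSMF1 and the PSME genes, and any further gene was chosen for mention once its values were known. The fits and the motif search were tested on simulated data. The alternatives were other pseudocounts, filters, scalings, variance models, the replicate number as a block, a loess correction for GC content and length, and each library left out. Replicate numbers did not pair the libraries. Some genes of the lists are not reported here. Figures were drawn with matplotlib 3.10.9.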

Additional observations from a re-analysis of the deposited data

How the results depend on the processing

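Of the 3 calls, PSMG3 kept its direction in all 18 alternatives, with a log2 fold change of 0.55 to 0.70, as did PSMD1 (-0.55 to -0.42) and PSMB2 (-0.44 to -0.35). The call itself held in 16 of the 18 alternatives for PSMG3, 13 for PSMD1 and 11 for PSMB2. Without moderation of the variance in the fit, PSMD1 was not called (adjusted p = 0.065). The number of proteasome genes called was 5 with no filter (4 lower), 6 after quantile normalization (5 lower), 14 after the GC content and length correction (2 higher, 12 lower) and 0 to 12 when each library was left out (0 to 2 higher, 0 to 10 lower). It was 0 without NC1 or OE3. Counting both directions, the share of proteasome genes called was above that of all genes tested in 3 alternatives. These were no filter (10.2% against 5.89%), quantile normalization (12.8% against 11.4%) and the correction (29.8% against 28.6%). It was below in the other 15 alternatives. In 2 of these 15 the share called lower was above: without OE1 (21.3% against 15.4%) and with replicate block and correction (14.9% against 12.5%). The share called higher was above without NC2 (2.13% against 1.21%) and without NC3 (2.13% against 1.34%). Over all genes the number was 1399, against 834 without moderation of the variance, where 1 proteasome gene was called lower, 3519 after the correction and 293 to 3514 when each library was left out.

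The median log2 fold change of the other base and lid genes was -0.10 to -0.011 with each library left out, and that of the assembly factors -0.26 to 0.018. Some values changed sign with a library left out, over ranges of -0.54 to 0.019 for POMP, -0.24 to 0.019 for PSMD14, -0.053 to 0.29 for the log2 ratio of PSMB8 to PSMB5 and -0.034 to 0.24 for that of PSMB10 to PSMB7. In these 4 the sign changed without OE1 alone. PSME4 ranged from -0.091 to 0.21 and was below 0 without NC2, OE2 or OE3. PSMB7 was at -0.040 after quantile normalization. None of these had passed the test, and their causes were not tested.

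Same-numbered libraries of the 2 groups did not deviate together (correlations of 0.073, 0.007 and 0.057 over tested genes), and not every library correlated best with its own number. With the replicate number as a block, 923 genes and 2 proteasome genes were called, 1 higher and 1 lower (PSMB2 was lost). These were 2.13% higher against 2.95% of all tested genes, and 2.13% lower against 4.54%. With the block and the GC correction, 2683 genes and 9 proteasome genes were called, 2 higher and 7 lower. These were 4.26% higher against 9.35% of all tested genes, and 14.9% lower against 12.5%.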

Other observations

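PSME3 shared its uneven libraries with B2M, which is no proteasome gene and was noticed after its values were seen. In PSME3, NC1 (35.2 FPKM) and OE2 (28.4 FPKM) were the lowest libraries, and the other 4 lay at 49.98 to 75.4 FPKM. B2M, the light chain of MHC class I, measured 245 and 235 FPKM in the same libraries and 488 to 624 FPKM in the other 4. The low libraries come from different groups, so both genes have wide errors in the group comparison (standard errors of 0.35 and 0.44 on the log2 scale), and the cause was not tested. BECN1, which overlaps PSME3 on the opposite strand, had group means of 65.1 and 66.9 FPKM.

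UBA6, an E1 enzyme for ubiquitin, was lower in every OE library, at 9.06, 16.04 and 13.8 FPKM against 18.3, 19.02 and 17.98 FPKM (log2 fold change -0.51, adjusted p = 0.13 from limma, and -0.29 with adjusted p = 0.049 without OE1). AKIRIN2, a factor in the nuclear import of proteasomes, was higher in every one, at 27.0, 27.0 and 24.5 FPKM against 20.8, 20.8 and 18.1 FPKM (0.38, adjusted p = 0.054 from limma, and 0.35 with adjusted p = 0.032 without OE1).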
